A study of Mus musculus with 6 samples.

Results

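The nitric oxide (NO) synthases and their regulators were examined in the mouse aorta as a set of 10 genes: Nos1, Nos2, Nos3, Gch1, Cav1, Nosip, Nostrin, Ddah1, Ddah2 and Arg2. The genes were found by their mouse NCBI gene identifiers, and all 10 were present among the 18191 genes of the table. The set was selected on grounds that included earlier results of these same libraries, so the levels and differences of its members between genotypes are given as a description. RNA sequencing had been performed on the whole aorta of male wild type (WT) mice and of male mice heterozygous for a CRISPR-Cas9 knockout of Npr1 (Npr1+/-), with 3 libraries of each genotype. Npr1 encodes the receptor for atrial and B-type natriuretic peptides. The age and strain of the mice, the extent of the deletion and the number of founder lines were not given in the sources used here. Each library is labelled as a replicate, and nothing more is said of the animals behind it, so the p-values below measure the spread between these libraries.

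NO synthases make NO and citrulline from arginine. The endothelial form, Nos3, works in the cells lining the vessel, and its NO relaxes the smooth muscle beneath by raising cGMP, the same second messenger that Npr1 makes when a natriuretic peptide binds. A synthase needs the cofactor tetrahydrobiopterin, whose synthesis starts with Gch1, and its activity and position in the cell are held by binding proteins such as caveolin-1 (Cav1), the main coat protein of endothelial caveolae. Methylated arginines inhibit the enzyme and are broken down by Ddah1, with which Ddah2 is grouped here, while arginases such as Arg2 use up the arginine.

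The libraries held 13510970 to 16664343 estimated counts, and 13938 genes, 9 of the 10 members among them, passed the filter on low counts. Npr1 itself was at 112, 153 and 152 FPKM (fragments scaled to transcript length and library depth) in WT 1 to 3 and at 70.35, 110 and 133 FPKM in Npr1+/- 1 to 3. Its groups overlapped, with a log2 fold change of -0.41 (SE 0.27), and it was lower in Npr1+/- than in WT at each of the replicate numbers. The summed FPKM of 6 smooth muscle markers was 4905 to 14855, as in a tissue rich in smooth muscle, and that of 12 endothelial markers was 211 to 498. The library Npr1+/- 1 stood apart: its 11 neuron markers summed to 210 FPKM against 3.42 to 6.65 in the other 5 libraries, where 4 of the 11 were under 3 counts, its 5 Schwann cell markers to 96.3 against 8.24 to 22.3, and its smooth muscle markers were the lowest. Adipocyte markers were high in both libraries numbered 1, at 2720 FPKM in WT 1 and 3414 in Npr1+/- 1 against 431 to 959 in the other 4. The part of these cells in the results below was not tested, and results of the members that rest on Npr1+/- 1 are given with and without it.

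The genes lie on 9 chromosomes, with Nos1 (chr5:117866839-117958840) and Nos3 (chr5:24364816-24384474) both on the forward strand of chromosome 5 (RefSeq, GRCm38.p6). Nos2 lies at chr11:78920787-78960226, Gch1 at chr14:47153895-47189413, Cav1 at chr6:17306335-17341328 and Ddah1 at chr3:145758692-145894277. Nosip (chr7:45062417-45078503), Nostrin (chr2:69135800-69189330), Ddah2 (chr17:35059035-35062099) and Arg2 (chr12:79130788-79156301) complete the set. The exons of Nos3 share 294 bases with Atg9b and 1040 bases with Gm15587, both on the opposite strand (GENCODE M21). Whether reads were counted by strand is not given in the sources used here, so reads of Nos3 and of these neighbours cannot be told apart there. Atg9b was at 0.26 to 1.38 FPKM in the 6 libraries, and Gm15587 was not in the table. Dividing counts by FPKM gave an effective length of 4038 to 4094 bases for Nos3 in all 6 libraries.

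The 3 tested members that were highest in Npr1+/- 1 by the largest margins, Gch1, Ddah1 and Nos1, are shown with the 250 bases before their start sites (RefSeq, GRCm38.p6, printed 5′ to 3′ on the strand of the gene). They lie at chr14:47189414-47189663 on the reverse strand, chr3:145758442-145758691 on the forward strand and chr5:117866589-117866838 on the forward strand. GENCODE M21 starts Nos1 further upstream, at chr5:117781032, so by that annotation the Nos1 window lies within the gene. Capitals mark matches, on either strand, to 5 motifs that were searched: the GC box GGGCGG, the CCAAT box CCAAT, the TATA box TATAAA, the E-box CACGTG and the cAMP response element TGACGTCA.
Gch1: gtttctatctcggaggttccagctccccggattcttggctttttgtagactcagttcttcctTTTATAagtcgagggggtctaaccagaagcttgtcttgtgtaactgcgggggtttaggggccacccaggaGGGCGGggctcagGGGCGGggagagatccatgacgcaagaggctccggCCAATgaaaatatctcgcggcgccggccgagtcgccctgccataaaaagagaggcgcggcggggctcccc
Ddah1: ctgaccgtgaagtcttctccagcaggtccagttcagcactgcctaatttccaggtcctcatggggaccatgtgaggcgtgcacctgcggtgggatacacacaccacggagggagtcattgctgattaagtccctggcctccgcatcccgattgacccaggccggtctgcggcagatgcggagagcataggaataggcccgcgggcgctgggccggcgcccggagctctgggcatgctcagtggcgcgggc
Nos1: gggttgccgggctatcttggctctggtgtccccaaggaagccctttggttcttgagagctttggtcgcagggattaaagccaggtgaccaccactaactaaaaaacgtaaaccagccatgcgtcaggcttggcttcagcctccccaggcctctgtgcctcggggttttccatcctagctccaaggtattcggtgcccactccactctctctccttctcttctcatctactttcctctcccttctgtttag
The Gch1 window held 2 GC boxes, beginning 118 and 105 bases before the start site, a CCAAT box at 70 and a TATA box at 188. Neither the Ddah1 nor the Nos1 window held any of the 5 motifs, and for Nos1 this says nothing of a promoter at the GENCODE start. Across 32851 promoter windows of this length, 32.7% held the GC box, 33.8% the CCAAT box, 12.4% the TATA box, 6.02% the E-box and 1.55% the cAMP response element. 

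In the WT aorta the members spanned a wide range of FPKM, a scale per length on which genes can be compared. Cav1 was far above the rest at 456 ± 74.0 FPKM (SD, n = 3), higher than 99.1% of all genes. Ddah2 (31.7 ± 6.64 FPKM) and Nosip (24.6 ± 1.75 FPKM) followed, and Nos3 ranked 4 at 13.0 ± 2.20 FPKM. Nostrin was at 1.82 ± 0.626 FPKM, Gch1 at 1.60 ± 0.200, Nos2 at 0.733 ± 0.0751 and Ddah1 at 0.507 ± 0.225. Nos1 (0.080 ± 0.0529 FPKM) and Arg2 (0.060 ± 0.0265 FPKM) were the lowest. Neighbours whose WT ranges overlapped, and whose order is thus not set, were Ddah2 with Nosip, Nostrin with Gch1, Nos2 with Ddah1, and Nos1 with Arg2. In the Npr1+/- libraries Nos3 ranked 3, above Nosip without overlap, while the range of Nos3 lay within that of Ddah2.

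**Figure D1:**
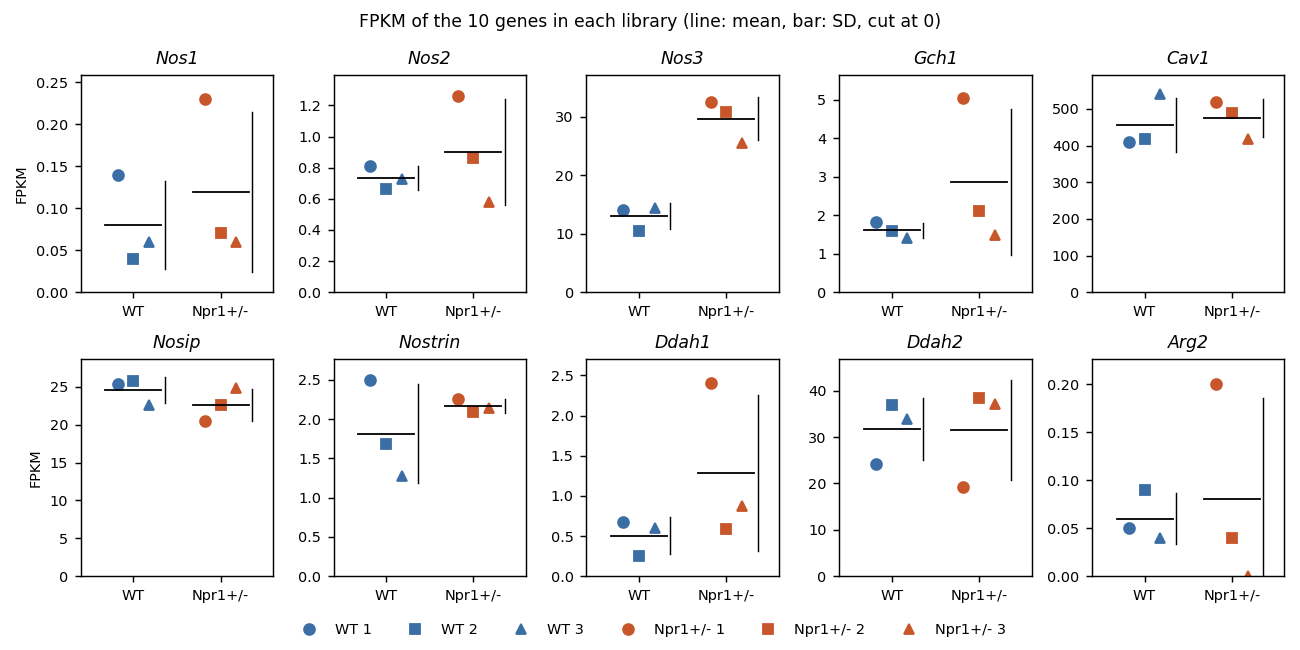
FPKM of each of the 10 genes (y axis, from 0, own scale per gene) in the 3 WT and 3 Npr1+/- libraries, 1 symbol per library, with the group mean as a line and the SD as a bar. The 3 Npr1+/- libraries of Nos3 sit between 25.53 and 32.56 FPKM, above all WT libraries at 10.47 to 14.45, and the groups of the other 9 genes overlap.

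Of the 3 synthases, Nos3 was the abundant one. It was at 14.10, 10.47 and 14.45 FPKM in WT 1 to 3 and at 32.56, 30.92 and 25.53 FPKM in Npr1+/- 1 to 3. Every Npr1+/- library was above every WT library, and the lowest of them was well clear of the highest WT value. As normalized CPM (counts scaled to library depth), Nos3 was 53.0 ± 9.78 in WT and 121 ± 18.6 in Npr1+/- (SD, n = 3 each), from 680 to 982 and 1585 to 1993 estimated counts. The fitted difference was 2.29-fold, with a 95% interval of 1.66 to 3.15, or a log2 fold change of 1.19 (SE 0.19). With any 1 library left out it was 1.05 to 1.31 on the log2 scale, at 1.08 without Npr1+/- 1, and it was 1.14 (SE 0.20) without both libraries numbered 1.

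Nos1, the neuronal synthase, was at 0.14, 0.04 and 0.06 FPKM in WT and at 0.23, 0.07 and 0.06 FPKM in Npr1+/-, from 6.12 to 34.5 estimated counts. The higher values of both genotypes were those of the libraries numbered 1, and the groups overlapped. Its log2 fold change was 0.70 (95% interval -1.05 to 2.45), and without Npr1+/- 1 it was -0.21. Without both libraries numbered 1 it was 0.52 (SE 0.59). Nos2, the inducible synthase of activated macrophages and other cells, was at 0.81, 0.66 and 0.73 FPKM in WT and at 1.26, 0.86 and 0.58 FPKM in Npr1+/-. Npr1+/- 1 was the highest library and Npr1+/- 3 the lowest, so the Npr1+/- range enclosed the WT range. The log2 fold change of Nos2 was 0.33 (95% interval -0.53 to 1.20) and -0.04 without Npr1+/- 1. Beside it, the summed FPKM of 7 macrophage markers was 79.7 to 213 in WT and 105 to 148 in Npr1+/-, with overlap, and its part in the Nos2 values was not tested. Nos3 made up 93.7 to 94.8% of the summed synthase FPKM in the WT libraries and 95.6 to 97.6% in the Npr1+/- libraries.

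Because Nos3 is made mainly by endothelial cells, which are a small share of the aortic wall, its level was also set against endothelial genes. In bulk tissue, fewer cells of a type and less RNA per cell cannot be told apart, nor can more cells and more RNA per cell. Pecam1, a junction protein of endothelial cells, was at 81.92, 69.68 and 121 FPKM in WT and at 143, 140 and 134 FPKM in Npr1+/-, higher in every Npr1+/- library, with a log2 fold change of 0.62 (SE 0.26). Cdh5, the adhesion molecule VE-cadherin, was at 31.31, 16.26 and 26.66 FPKM in WT and at 56.96, 29.64 and 24.94 FPKM in Npr1+/-, and its groups overlapped, with a log2 fold change of 0.61 (SE 0.39). The sum of 12 endothelial markers was 211 to 314 FPKM in WT and 352 to 498 in Npr1+/-, without overlap. Of the 12, 11 had a positive log2 fold change and none was called by edgeR's quasi-likelihood test at the thresholds given below, nor by DESeq2, with 4 at an unadjusted edgeR p under 0.05. With a block for the replicate number, an alternative added after the data were seen, DESeq2 called 5 of the 12 as higher (Pecam1, Tie1, Egfl7, Emcn and Vwf), against 1.81% of all genes with an adjusted p. The same fit called 3 of 6 adipocyte markers (Adipoq, Plin1 and Cidec), Mbp among the Schwann cell markers and Col1a1 among the fibroblast markers, and edgeR with the block called none of these. These markers were named after their values were seen.

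Relative to the mean log2 FPKM of Pecam1 and Cdh5, Nos3 was at -1.84, -1.68 and -1.97 in WT and at -1.47, -1.06 and -1.18 in Npr1+/-. The groups did not overlap, against 0.202% of 13883 tested genes that were higher without overlap on this scale. The reference was itself higher in Npr1+/-, which lowers genes in general on this scale, and 22.8% were lower without overlap. The difference of 0.60 on the log2 scale was smaller than the 1.19 before this reference was applied. Taken against each reference gene alone, Nos3 was 17.2, 15.0 and 11.97% of Pecam1 FPKM in WT and 22.7, 22.1 and 19.1% in Npr1+/-, again without overlap. Relative to Pecam1, 0.166% of the 13883 genes were higher and 38.6% lower without overlap. Against Cdh5 it was 45.0, 64.4 and 54.2% in WT and 57.2, 104 and 102% in Npr1+/-, where Npr1+/- 1 fell among the WT libraries. Over all 12 endothelial genes, the Npr1+/- mean of the Nos3 ratio was 1.26 to 2.82 times the WT mean, with a median of 1.59. The groups did not overlap for 7 of these genes, and they overlapped for Cdh5, Kdr, Emcn, Vwf and Robo4. The highest ratio was against Erg, an endothelial transcription factor and the marker of the 12 with a negative log2 fold change.

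**Figure D2:**
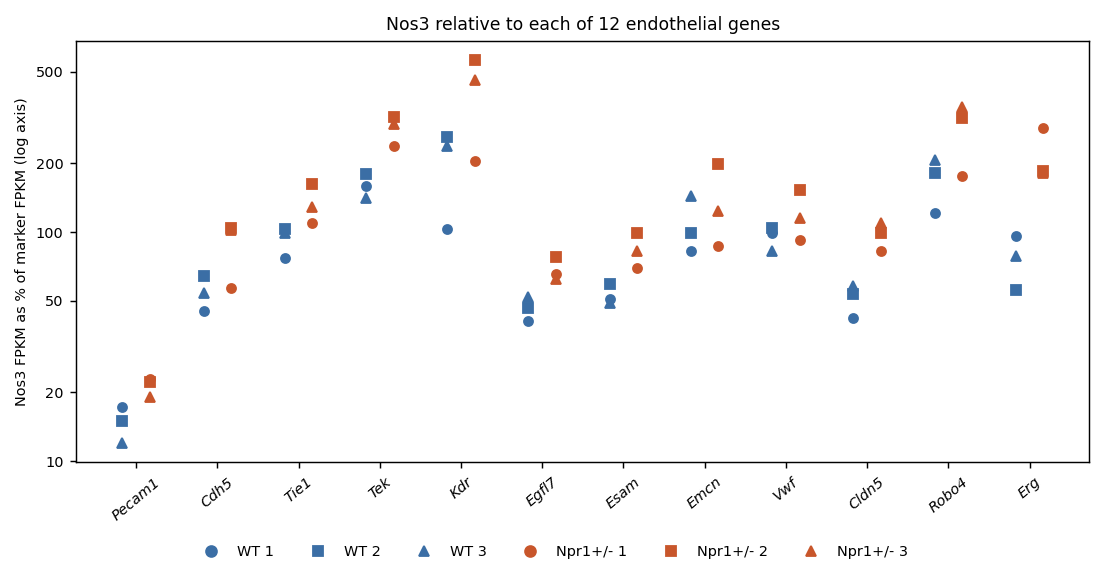
Nos3 FPKM as a percent of the FPKM of each of 12 endothelial genes (y axis, log scale) in the 6 libraries, WT in blue and Npr1+/- in orange, 1 symbol per replicate number. For 7 of the 12 genes every Npr1+/- library lies above every WT library, and for Cdh5, Kdr, Emcn, Vwf and Robo4 the groups overlap.

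Gch1, which makes the first intermediate of tetrahydrobiopterin, was at 1.81, 1.59 and 1.41 FPKM in WT and at 5.03, 2.10 and 1.48 FPKM in Npr1+/-. Npr1+/- 1 was far above all other libraries, and Npr1+/- 3 lay within the WT range. The log2 fold change was 0.87 (95% interval -0.27 to 2.01), and without Npr1+/- 1 it was 0.14 (SE 0.28). Of 8 other genes of tetrahydrobiopterin metabolism, 4 had a positive and 4 a negative log2 fold change. Pcbd1, which helps to recycle the cofactor, was likewise highest in Npr1+/- 1, at 1.20, 1.90 and 0.75 FPKM in WT and at 7.44, 2.04 and 1.55 FPKM in Npr1+/-. Spr, the last enzyme of the synthesis, was at 43.3 to 55.4 FPKM in WT and 40.4 to 47.8 in Npr1+/-, with overlap.

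Among the proteins that bind a synthase, Cav1, which holds Nos3 inactive in caveolae, was at 409, 418 and 542 FPKM in WT and at 519, 490 and 419 FPKM in Npr1+/-. The groups overlapped almost fully, with a log2 fold change of 0.06 (95% interval -0.54 to 0.66). The ratio of Cav1 to Nos3 FPKM was 29.0, 39.9 and 37.5 in WT and 15.9, 15.8 and 16.4 in Npr1+/-. The 3 Npr1+/- ratios were close together and all below the WT ratios. With Nos3 at a log2 fold change of 1.19 and Cav1 at 0.06, this ratio mainly restates the Nos3 difference. Relative to Pecam1 and Cdh5, Cav1 was 3.302 ± 0.313 in WT and 2.77 ± 0.217 in Npr1+/- on the log2 scale (SD, n = 3 each), a difference of -0.53. These groups did not overlap, but 22.8% of 13883 tested genes were lower without overlap relative to this reference, which was itself higher in Npr1+/-. Relative to Pecam1 alone Cav1 was again lower without overlap, as were Nosip, Ddah2 and 38.6% of the 13883 genes. Relative to Cdh5 alone or to the 12 endothelial markers the Cav1 groups overlapped. Cav1 is also made by smooth muscle cells, fibroblasts and adipocytes, so this reference covers only one of its sources.

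Nosip, a ubiquitin ligase that binds Nos3 and draws it away from the membrane, was at 25.31, 25.79 and 22.55 FPKM in WT and at 20.54, 22.57 and 24.77 FPKM in Npr1+/-. Its groups overlapped, and it was the one tested member with a negative log2 fold change, -0.09 (95% interval -0.37 to 0.20). Without both libraries numbered 1 this was 0.00. Nostrin, a membrane-binding protein that carries Nos3 into vesicles, was at 2.50, 1.68 and 1.27 FPKM in WT and at 2.26, 2.09 and 2.14 FPKM in Npr1+/-. WT 1 was the highest library and the other 2 WT libraries were the lowest, so the narrow Npr1+/- range lay inside the WT range, with a log2 fold change of 0.27 (95% interval -0.45 to 0.99). Of 7 tested genes of the caveolae outside the set, 3 had a positive and 4 a negative log2 fold change. Cavin1, the main cavin of the caveolar coat, was at 302 to 404 FPKM in WT and 280 to 370 in Npr1+/-, and Cavin2 at 29.62 to 40.48 and 37.15 to 74.65 FPKM, both with overlap.

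Ddah1 and Ddah2 were grouped here under the breakdown of asymmetric dimethylarginine, and Ddah2 had the higher RNA level in the aorta. The RNA level says nothing of how much each enzyme breaks down. Ddah1 was at 0.67, 0.25 and 0.60 FPKM in WT and at 2.40, 0.59 and 0.87 FPKM in Npr1+/-. Npr1+/- 1 stood alone at the top, and Npr1+/- 2 lay within the WT range. The log2 fold change of 1.401 (95% interval -0.17 to 2.97) was 0.51 (SE 0.50) without Npr1+/- 1. Ddah2 was at 24.21, 36.88 and 33.99 FPKM in WT and at 19.20, 38.31 and 37.16 FPKM in Npr1+/-. Its lowest library of each genotype was the one numbered 1, the reverse of Ddah1 in Npr1+/- 1, and its log2 fold change was 0.00 (95% interval -0.69 to 0.70). The ratio of Ddah2 to Ddah1 FPKM was therefore 36.1, 148 and 56.7 in WT and 8, 64.9 and 42.7 in Npr1+/-. Of 5 tested genes that make methylarginine, 2 had a positive and 3 a negative log2 fold change, from -0.07 to 0.06. Agxt2, which degrades it by another route, did not pass the filter. Prmt1, the main enzyme that makes asymmetric dimethylarginine in proteins, was at 35.81 to 43.74 FPKM in WT and 30.79 to 45.25 in Npr1+/-.

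Arg2, the mitochondrial arginase, was at 0.05, 0.09 and 0.04 FPKM in WT and at 0.20, 0.04 and 0 FPKM in Npr1+/-. These values came from 1 to 4 counts, and none in Npr1+/- 3, where 0 counts allow up to 0.196 CPM. It did not pass the filter, and no fold is given because 5 of the 6 libraries were under the floor of 3 counts. Of the 6 tested genes of arginine and citrulline handling, all 6 had a positive log2 fold change and none was called by edgeR's quasi-likelihood test, nor by DESeq2, with 1 at an unadjusted edgeR p under 0.05. That gene was Ass1, which joins citrulline and aspartate on the way back to arginine. Ass1 was at 7.24, 5.25 and 7.22 FPKM in WT and at 11.59, 9.19 and 10.14 FPKM in Npr1+/-, without overlap, and its log2 fold change was 0.66 (SE 0.20). Asl, the next enzyme of the same route, was at 9.40 to 11.33 FPKM in WT and 8.75 to 13.09 in Npr1+/-.

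A gene was called at a Benjamini-Hochberg adjusted p under 0.05 together with a log2 fold change of 0.5 or more in either direction. By edgeR's quasi-likelihood test none of the 9 tested members was called, against 0% of all 13938 genes, of which 412 were at an unadjusted p under 0.05, Nos3 among the members. Nos3 ranked 4 of all tested genes by p, with an adjusted p of 0.999 by edgeR. DESeq2 called Nos3 and no other member, with an adjusted p of 0.000839, against 0.0942% of the genes with an adjusted p, or 16 genes. DESeq2 with a block for the replicate number, an alternative added after the data were seen, again called Nos3 only, with an adjusted p of 1.81e-06, against 1.81%. With the block in edgeR's quasi-likelihood test, the adjusted p of Nos3 was 0.0743 with a log2 fold change of 1.20 (SE 0.17), and no gene was called. Groups of normalized CPM did not overlap for 1 of the 9 tested members, Nos3, which was higher in Npr1+/-, against 3.90% of all tested genes that were higher without overlap. No member was lower without overlap, against 3.58%. Since the set was chosen with these libraries known, nothing is read from these counts. The log2 fold changes of the 9 tested members had a median of 0.33, with 8 positive and 1 negative, beside a median of 0.01 over all tested genes.

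**Figure D3:**
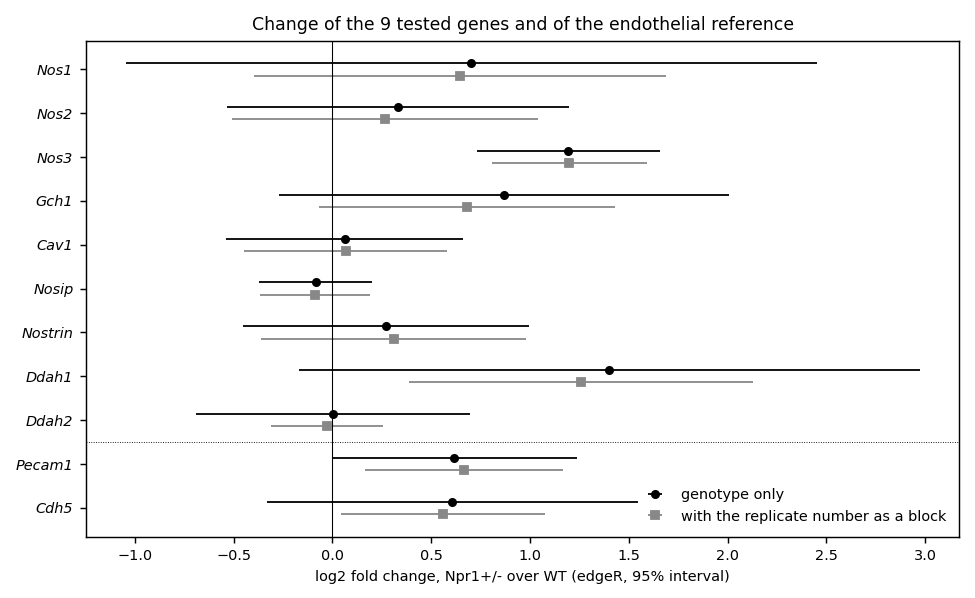
Log2 fold change of Npr1+/- over WT (x axis) with its 95% interval for the 9 tested members and, under the dotted line, Pecam1 and Cdh5, from edgeR with genotype alone (circles) and with the added replicate block (squares). Nos3 is at 1.19 and 1.20, and the interval of Ddah1 reaches below 0 only in the fit with genotype alone.

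Several members had their highest or lowest value in a single library, Npr1+/- 1. As normalized CPM, Nos1, Nos3 and Ddah1 were higher in Npr1+/- than in WT at each of the replicate numbers. Npr1+/- 1 was the highest library for Nos1, Nos2, Nos3, Gch1, Ddah1 and Arg2 and the lowest for Nosip and Ddah2. It was also the highest library for every one of the 11 neuron, 5 Schwann cell and 6 adipocyte markers and for 11 of the 12 endothelial markers, and the lowest in smooth muscle markers. Without it, the log2 fold changes of Nos1, Gch1 and Ddah1 fell to -0.21, 0.14 and 0.51, and that of Nos3 remained at 1.08. Without both libraries numbered 1, those of Nos1, Gch1 and Ddah1 were 0.52 (SE 0.59), 0.25 (SE 0.28) and 0.78 (SE 0.51). With the replicate block in edgeR they were 0.65, 0.68 and 1.26. The part of the neuron, Schwann cell and adipocyte RNA in these values was not tested.

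**Figure D4:**
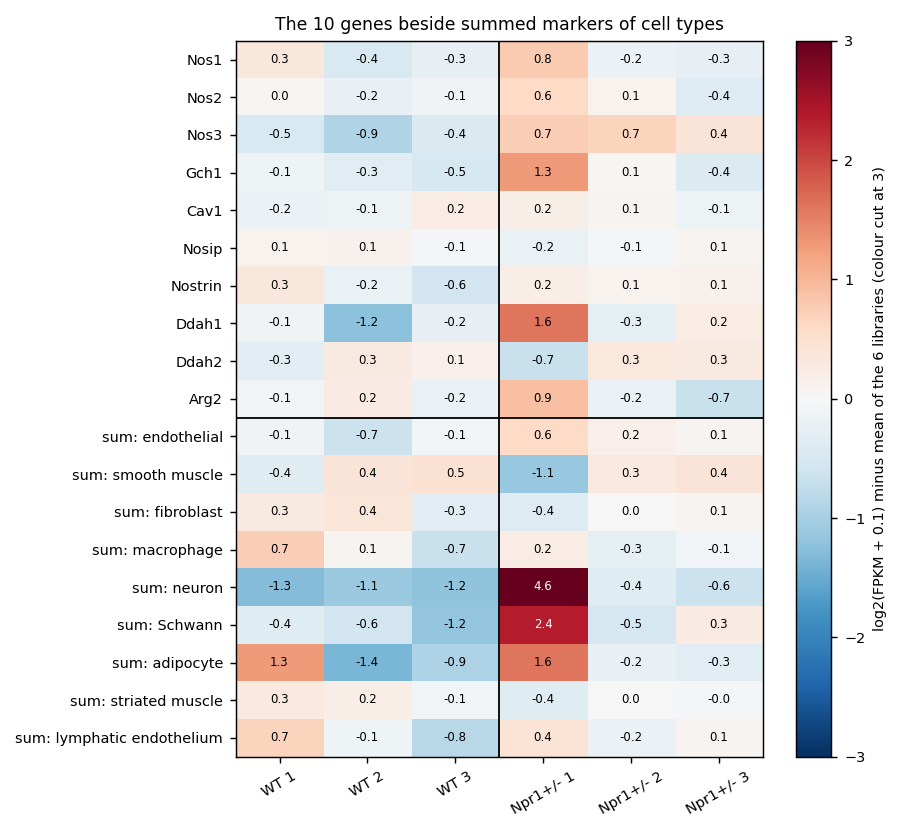
Log2(FPKM + 0.1) minus its mean over the 6 libraries (colour and number) for the 10 genes, above the line, and for the summed FPKM of 9 lists of cell type markers, below it. Npr1+/- 1 is the highest library for Gch1, Ddah1 and Nos1 and for neuron, Schwann cell and adipocyte markers, while Nos3 is above its mean in all 3 Npr1+/- libraries.

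Outside the set, 52 of 56 further genes of the NO pathway passed the filter, and Prmt8, Cavin4, Agxt2 and Arg1 did not. None of the 52 was called by edgeR's quasi-likelihood test or by DESeq2, with or without the block, and 2 were at an unadjusted edgeR p under 0.05. Their log2 fold changes were positive for 30 and negative for 22, with a median of 0.04, and 4 of the 52 were higher and none lower without overlap, beside 3.90% and 3.58% of all tested genes. Of 15 partners and kinases of the synthases, 8 were positive and 7 negative. The chaperone Hsp90aa1, which assists the activation of Nos3, was at 180 to 362 FPKM in WT and 212 to 587 in Npr1+/-, with overlap. Klf2, a transcription factor that raises Nos3 under laminar flow, was at 62.46, 65.51 and 88.65 FPKM in WT and at 91.54, 121 and 93.68 FPKM in Npr1+/-, without overlap, with a log2 fold change of 0.51 (SE 0.21). Klf4, a related factor, was at 27.73 to 31.29 FPKM in WT and 31.94 to 39.37 in Npr1+/-, also without overlap but with a log2 fold change of 0.24 (SE 0.13). Of 7 genes that scavenge NO or remove it from proteins, 4 were positive. Cyb5r3 and Txn1, the most abundant of them, had log2 fold changes of -0.19 and 0.13. Ngb, a globin of low level here, was at 0.41, 1.10 and 0.60 FPKM in WT and at 2.62, 1.44 and 1.18 FPKM in Npr1+/-, also without overlap. Like the neuron markers, Ngb was highest in Npr1+/- 1, and no fit without that library is given for it. The part of neuron RNA in its values was not tested.

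**Figure D5:**
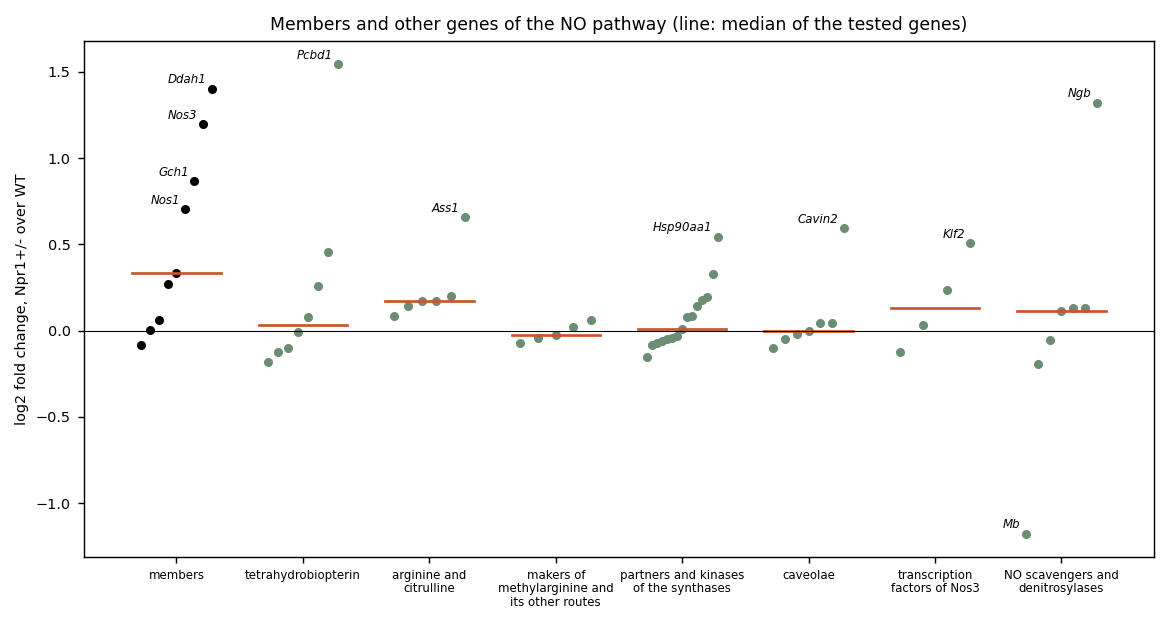
Log2 fold change of Npr1+/- over WT (y axis) for the 9 tested members, in black, and for 52 other genes of the NO pathway in 7 subgroups, in green, with the median of each as an orange line. The median of the members is 0.33, and genes with an absolute value over 0.5 are named.

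By correlation of normalized log2 CPM over the 6 libraries, the genes most like Nos3 were Psmd12 (Pearson r = 0.995), Rapgef5 (0.994), Afap1l2 (0.986), Ankrd33b (0.984) and Cmip (0.982), all without overlap between genotypes in the same direction. In all, 36 genes were above 0.95, and Pecam1 and Cdh5 ranked at 113 and 677 in likeness to Nos3. Cmip was at 12.49 to 15.94 FPKM in WT and 25.04 to 31.08 in Npr1+/-, and Afap1l2 at 2.58 to 3.47 and 5.00 to 5.53 FPKM. For Nos1 the most alike were Acsf2 (r = 1.00), Marchf5, Mgll, Mto1 and Pex5, and 997 genes were above 0.95. These genes were high in both libraries numbered 1, with Mgll, a lipase abundant in fat, at 148 and 201 FPKM there against 67.34 to 96.68 FPKM in the other 4. The 6 points share the 2 genotypes and the depth of each library, so these correlations are a description.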

How the data were processed

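RNA had been extracted from whole aorta, made into 6 libraries by random priming of purified mRNA and sequenced on the BGISEQ-500 platform. The authors filtered the reads, aligned them to a set of coding genes with Bowtie2 (mm10 in the submitters' processing notes) and deposited estimated counts from RSEM and FPKM per gene and library. A further 4 columns of the authors' group means were not used. Symbols were matched to 18070 of the 18191 gene identifiers through RefSeq (GRCm38.p6).

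The members and all lists of genes were chosen with earlier results of these data known. Estimated counts were rounded, scaled by TMM, filtered at a minimum count of 10 and fitted with genotype in edgeR 4.0.16 (R 4.3.3) by the quasi-likelihood test over all genes, with Benjamini-Hochberg adjustment. Normalized CPM used the same scaling. Alternatives were DESeq2 1.42.0, other size factors, no filter, limma 3.58.1 on log2(FPKM + 0.1) and log2(FPKM + 1), the replicate block, and leaving out libraries. Depth was 13510970 to 16664343 counts per library, at which 3 counts are 0.180 to 0.222 CPM. The values relative to endothelial genes were log2 FPKM of a gene minus the mean log2 FPKM of Pecam1 and Cdh5. The genotypes share replicate numbers 1 to 3. Same-numbered libraries deviated together from their group means (r = 0.64, 0.39 and 0.24 for numbers 1, 2 and 3), while libraries of different numbers were at r = -0.58 to 0.44. WT 3 with Npr1+/- 2 (0.44) and WT 2 with Npr1+/- 3 (0.37) were as high as numbers 2 and 3, so these values set apart number 1 only. The labels do not say what the numbers share. Named genes were the members, Npr1, Pecam1 and Cdh5, and the 5 genes most like Nos3 and Nos1. In each subgroup of the pathway list, genes were drawn from the 2 with the highest FPKM and the one with the largest absolute change. Not all of these were shown. Kdr, Emcn, Vwf, Robo4 and Erg were named from the endothelial marker list. The fits were also run on counts simulated as independent libraries with no outlying library, and no result above rests on that run.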

Additional observations from a re-analysis of the deposited data

How the results depend on the processing

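The log2 fold change of Nos3 was 1.05 to 1.31 in all 14 alternatives, with an edgeR or limma adjusted p of 0.0743 to 1.00 and a call by DESeq2 alone. DESeq2 called 1 member with and 1 without the replicate block, against 0 by edgeR, and 16 genes in all, or 265 with the block. The replicate block in edgeR called 0 genes and changed no call of a member, with Nos3 at 1.20. Without both libraries numbered 1, an alternative chosen after seeing the data, 1 gene was called, Gm14434, named after its value was seen. Leaving out 1 library gave 0 calls among the members and among all genes. Of 126 alternatives for the 9 log2 fold changes, 111 kept the sign. Without Npr1+/- 1 the values were -0.21 for Nos1, 0.14 for Gch1 and 0.51 for Ddah1, against 0.70, 0.87 and 1.401 with it. Without both libraries numbered 1 they were 0.52, 0.25 and 0.78.

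Relative to the endothelial reference, 2 of 9 members did not overlap between genotypes, Nos3 being higher (0.202% of all tested genes) and Cav1 lower (22.8%). This count was 4 with Pecam1 alone, of which Cav1, Nosip and Ddah2 were lower (38.6% of all tested genes), 0 with Cdh5 alone, 1 (Nos3) with the endothelial marker list and 2 to 5 when 1 library was left out, 5 being without WT 3. Nos3 was higher by 0.51 to 0.72 on the log2 scale in every one of these. In the order of WT levels, 4 pairs of neighbours overlapped, 2 to 4 when 1 library was left out. The depth did not allow Arg2 to be compared, and it left Nos1 with 6.12 to 34.5 counts. With 3 libraries of each genotype, the 95% interval of Nos1 ran from -1.05 to 2.45.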
